A study of Mus musculus with 111 samples.

Results

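Antioxidant enzymes were measured in mouse gastrocnemius under 2 forms of muscle disuse, through 10 genes: Sod1, Sod2, Sod3, Cat, Gpx1, Gpx3, Prdx1, Txnrd1, Hmox1 and Nqo1. The list names enzymes and uses no measured value as its rule, but it was drawn up with earlier results of these arrays known. A gene was measured by the array features (probe sets) that the platform annotation gives to that gene alone, and the probe set with the highest mean over all arrays stood for it. Of the 10 genes, 9 had such probe sets, 20 in all, and all 9 passed the filter on dim signals, among 16029 genes that did. The 5 probe sets of Prdx1, a thioredoxin-dependent peroxidase, each list 2 genes, so Prdx1 has no value here. In all, 8 enzymes were above the 40th percentile of the array in all 111 arrays, and Hmox1 was in 106 of them.

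The muscles came from male C57BL/6 mice, and each array held the RNA of 1 muscle. Casting and tenotomy mice were 8 weeks old per the design text. In casting mice the right hindlimb was immobilised and the left leg served as control, giving 10, 7 and 9 cast legs after 2, 7 and 14 days and 9, 8 and 9 control legs on the same days. In tenotomy mice 1 Achilles tendon was cut, with 5, 7 and 5 muscles of each leg at days 2, 7 and 14. Sham surgery exposed and handled the tendon without cutting it and gave 3, 7 and 8 right legs at these days, and 7 right legs came from mice with no treatment. In all, 70 mice were used, and 41 of them gave both legs, 25 after casting and 16 after tenotomy. No allele or transgene is given for any group.

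The sources disagree on which tendon was cut. By the labels of the samples, left legs had tenotomy and right legs were controls, and these labels set the direction below. The design text instead names the right tendon, and under that reading every difference between the legs of tenotomy mice, and every statement of higher or lower in it, turns its sign. Each value is therefore given by leg side together with its label. Casting, tenotomy, and sham with naive mice carry animal numbers of different styles and are read here as separate cohorts, though no label names a cohort. A difference between such cohorts cannot be told apart from treatment. Leg side goes with treatment in both models as well.

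Superoxide dismutases turn superoxide into hydrogen peroxide. Sod1 is the copper and zinc enzyme of the cytosol, Sod2 the manganese enzyme of the mitochondrial matrix, and Sod3 is secreted and held in the matrix around cells. Hydrogen peroxide is then removed by catalase (Cat) in peroxisomes and by the glutathione peroxidases, the intracellular Gpx1 and the secreted plasma enzyme Gpx3. Txnrd1 reduces thioredoxin, which in turn serves peroxiredoxins such as Prdx1. Hmox1 breaks down haem, and Nqo1 reduces quinones. Several of these genes, Hmox1, Nqo1 and Txnrd1 among them, are textbook targets of the factor NRF2 (gene Nfe2l2), which binds a DNA motif called the antioxidant response element. In muscle these enzymes are studied because contraction and mitochondria produce oxidants, and because infiltrating phagocytes produce them too.

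The RefSeq promoter windows of build GRCm38.p6, from 250 bases before to 50 bases after a gene's start, were searched on both strands for TGACNNNGC, the core of the antioxidant response element. Of the 10 genes, 8 had a window in the set searched, 10 windows in all. Hmox1 and Sod3 had none in that set and were not searched. The letters were found in 3 windows, those of Sod1, Prdx1 and 1 of the 3 of Txnrd1, each on the minus strand. Across all 32851 windows, 12.4% hold the motif. Counted from the start site, the matches begin at base -56 in Sod1, -92 in Txnrd1 and -133 in Prdx1. The 250 bases before the start of the measured genes among them are printed 5′ to 3′ on the plus strand because these promoters hold the letters searched, shown in capitals, at chr16:90220512-90220761 for Sod1 and at chr10:82858956-82859205 for Txnrd1.
Sod1: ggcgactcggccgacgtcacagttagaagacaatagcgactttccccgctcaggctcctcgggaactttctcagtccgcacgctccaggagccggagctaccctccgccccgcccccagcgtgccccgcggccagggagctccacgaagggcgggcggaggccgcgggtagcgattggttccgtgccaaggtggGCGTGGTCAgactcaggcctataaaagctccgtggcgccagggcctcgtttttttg
Txnrd1: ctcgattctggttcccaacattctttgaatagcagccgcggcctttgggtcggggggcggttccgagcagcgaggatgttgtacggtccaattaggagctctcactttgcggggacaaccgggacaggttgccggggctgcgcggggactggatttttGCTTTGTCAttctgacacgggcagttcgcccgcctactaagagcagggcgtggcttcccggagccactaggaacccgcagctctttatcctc
A match is a description of the letters and says nothing of binding. The leg differences of Sod1 and Txnrd1 are given below.

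The values are linear signals that the authors scaled to a common mean near 100 in every array. Tests ran on log2 of the signal plus 3.982, in 1 limma model of all 111 arrays with 16 group means and the mouse as a random block. A gene is called in a comparison when its p, adjusted over all 16029 genes by Benjamini and Hochberg's method, is under 0.05. Differences are log2 values with the standard error (SE), the first-named leg or group minus the second, and a level is a signal. The number of arrays in a group limits the precision. The labels name separate animals, so the spread is that between mice.

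The defining markers of skeletal muscle were high in all groups: the summed signal of 10 of them, Acta1, Ckm and Mb first, ran from 45590 to 240600 over the arrays. Other cell types differed between groups. The mean of 15 macrophage markers lay 3.00 above naive on the log2 scale in right legs of tenotomy mice at day 2, 1.54 at day 7 and 0.89 at day 14, against -0.21, -0.18 and -0.36 in their left legs. All 15 were called lower in left than in right legs at day 2 and at day 7, and 12 of 15 at day 14. Of 9 fibroblast markers, 8, 9 and 8 were also called lower in left legs at the 3 days. Of 10 skeletal muscle markers, 5, 3 and 0 were called higher in left legs at the 3 days, with medians of 0.48, 0.34 and 0.24. In casting, 8 of 15 macrophage markers were called lower in cast legs at day 2, 2 higher at day 7 and 14 higher at day 14. Fewer cells of a type and less RNA per cell cannot be told apart in whole muscle, and the part of these cells in the values below was not tested. The ratio of 3′ to 5′ actin probe sets, a sign of RNA quality, also differed: on the log2 scale its mean was -0.83, -0.38 and -0.58 in left legs of tenotomy mice at the 3 days, against -0.02, 0.11 and 0.08 in right legs. In casting it was -0.67, -0.66 and -0.66 in cast legs against -0.73, -0.49 and -0.33 in control legs, and it lay between -1.31 and -1.12 in sham and naive groups. The same ratio for Gapdh differed far less. It was -0.27, -0.28 and -0.25 in left legs of tenotomy mice against -0.25, -0.29 and -0.21 in right legs. In casting it was -0.27, -0.29 and -0.27 in cast legs against -0.28, -0.28 and -0.29 in control legs, and in sham and naive groups it lay between -0.21 and -0.17. The low end of the signal distribution was raised in 2 cast legs and 1 sham leg at day 14, and the counts of called enzymes in the 6 leg differences were the same without them.

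In casting, the called differences of the 9 enzymes were all less than 1 on the log2 scale. Gpx3 was higher in cast legs at all 3 days, Nqo1 at day 2, and Sod1 slightly at day 7. Sod2 was lower at days 7 and 14 and Cat at day 14. Sod3 was lower at day 2 and higher at day 14, when Hmox1 was also higher. At day 2, 2 enzymes rose and 1 fell, while 11.0% of all genes were called higher and 13.3% lower. At day 7, 2 rose and 1 fell, against 4.22% and 4.55% of all genes, and at day 14, 3 rose and 2 fell, against 7.17% and 6.04%. The median difference of the 9 was 0.04, 0.13 and 0.10 at the 3 days, beside -0.03, 0.01 and 0.04 for all genes. Nqo1 at day 2 was the 1 case among the 9 enzymes in which the arrays of cast and control legs did not overlap, and the share of all genes without overlap was not counted.

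The legs of tenotomy mice differed in more enzymes than those of casting mice at days 2 and 7, with 7 and 6 called against 3 and 3. At day 14 they differed in fewer, with 3 called against 5. Left legs (labelled tenotomy) had less Hmox1, Sod3, Gpx1 and Cat mRNA and more Sod2 mRNA than right legs (labelled control) at day 2, and Sod3, Gpx1 and Sod2 kept these directions through day 14. At day 2, 1 enzyme was higher and 6 were lower in left legs, while 15.9% of all genes were called higher and 20.8% lower. At day 7 the counts were 2 and 4, against 14.6% and 18.3%, and at day 14 they were 1 and 2, against 9.71% and 13.5%. The median difference of the 9 was -0.38, -0.20 and 0.11, beside -0.02, 0.00 and -0.02 for all genes. The arrays of left and right legs did not overlap for 5 enzymes at day 2, 4 at day 7 and 4 at day 14. How many of all genes had legs without overlap was not counted, so these counts have no background to be read against. The plot of leg differences sets both models side by side.

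**Figure D1:**
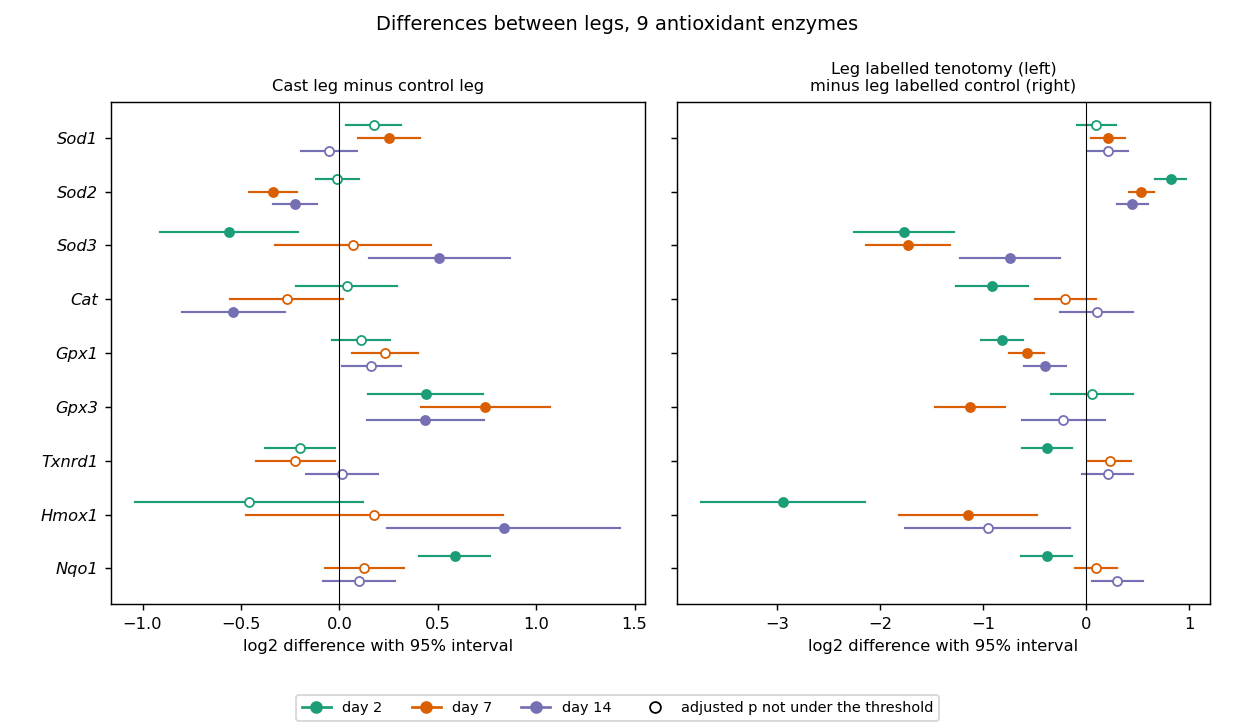
Log2 difference (points, horizontal axis) with its 95% interval (bars) for each of 9 enzymes at days 2, 7 and 14, on the left for cast minus control legs and on the right for left legs labelled tenotomy minus right legs labelled control; filled points have an adjusted p under 0.05. Hmox1 at day 2 of tenotomy mice lies farthest from 0, at -2.94, and the 2 panels have different horizontal scales.

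Among the superoxide dismutases, Sod2 had opposite signs in the 2 models as the sample labels give them. With right set against left in both models, as the design text reads, it was lower in right legs in both at days 7 and 14, and tenotomy minus casting was -0.20 and -0.22 (adjusted p 0.0998 and 0.133). In tenotomy mice at day 2, Sod2 signals were 1601, 1687, 1714, 1805 and 1941 in left legs (labelled tenotomy), against 863.4, 960.3, 979.6, 1001 and 1140 in right legs (labelled control). Every left leg was above every right leg, and the left leg was higher in 5 of 5 mice. The difference was 0.82 (SE 0.07, adjusted p 5.22e-17). At day 7 the signals ran from 1732 through a median of 2067 to 2142 in left legs and from 1260 through 1355 to 1622 in right legs. The legs again did not overlap, with the left leg higher in 7 of 7 mice, by 0.54 (SE 0.06, adjusted p 9.1e-12). At day 14 the signals were 1821, 1903, 1912, 2145 and 2376 in left legs, against 1321, 1496, 1502, 1554 and 1554 in right legs. There too the legs stood apart, by 0.45 (SE 0.08, adjusted p 1.78e-06), and the left leg was higher in 4 of 4 mice with both legs.

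In casting mice, Sod2 differed little at day 2, with a mean of 1920 ± 118.4 in 10 cast legs and 1941 ± 199.0 in 9 control legs (SD). At day 7 it ran from 1410 through a median of 1656 to 1867 in cast legs and from 1823 through 2042 to 2392 in control legs. The ranges overlapped only at their ends, and the cast leg was lower in 7 of 7 mice, by a difference of -0.34 (SE 0.06, adjusted p 2.96e-05). At day 14 the signals ran from 1563 through 1785 to 2104 in cast legs and from 1867 through 2034 to 2304 in control legs. The cast leg was lower in 8 of 9 mice and the difference was -0.23 (SE 0.06, adjusted p 0.00253). The other 3 probe sets of Sod2 had the same sign as the tested one at day 7 and day 14 of casting and on all 3 days of tenotomy.

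Sod3 gave the widest differences of the dismutases. In tenotomy mice at day 2 its signals were 62.26, 101.2, 127.1, 152.8 and 166.7 in left legs (labelled tenotomy), against 236.5, 343.7, 416.5, 464.6 and 673.5 in right legs (labelled control). No left leg reached the lowest right leg, and the difference was -1.77 (SE 0.24, adjusted p 1.33e-09), a 3.40-fold lower level on the scale with the added constant. At day 7 it ran from 65.79 through 150.3 to 221.5 in left legs and from 228.8 through 505.9 to 809.4 in right legs. These ranges were apart as well, with a difference of -1.73 (SE 0.21, adjusted p 1.38e-11) and lower left legs in 7 of 7 mice. At day 14 the signals were 103.6, 105, 115.4, 129.9 and 161.6 in left legs, against 118.3, 211.7, 221.9, 231.1 and 279.7 in right legs. The right leg at 118.3 lay among the left legs. The difference was -0.74 (SE 0.25, adjusted p 0.0179), and with the mouse as a fixed block it was -0.81 with an adjusted p of 0.0621. The call was also lost without left leg replicate 2 (a difference of -0.67) and without right leg replicate 3 (-0.63).

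In casting, Sod3 changed direction between days. At day 2 it ran from 127 through a median of 214.1 to 502.7 in cast legs and from 225.3 through 354.3 to 513.3 in control legs. Cast legs were lower in 8 of 9 mice, with a difference of -0.56 (SE 0.18, adjusted p 0.0115), and 1 cast leg at 502.7 stood far above the next, at 239. With the mouse as a fixed block the day 2 difference was -0.54 with an adjusted p of 0.0533. At day 7 the difference was 0.07 (SE 0.20, adjusted p 0.909). At day 14 signals ran from 299.1 through 426.7 to 832.7 in cast legs and from 252 through 347.3 to 392.2 in control legs. Cast legs were higher in 8 of 9 mice, by 0.51 (SE 0.18, adjusted p 0.0464), and the call was lost in 11 of 18 fits that each left out 1 array. With the mouse as a fixed block that adjusted p was 0.0995. The leg difference at day 14 minus that at day 2 was 1.07 in casting (SE 0.25, adjusted p 0.00139). Macrophage markers moved in the same directions in casting, lower at day 2 and higher at day 14, and their part in the Sod3 values was not tested.

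Sod1 differed least. In cast legs at day 7 its signals ran from 3144 through 3502 to 3961, against 2704 through 2950 to 3482 in control legs. The cast leg was higher in 7 of 7 mice, by 0.25 (SE 0.08, adjusted p 0.0272), although the ranges overlapped. In tenotomy mice at day 7 Sod1 ran from 2785 through 2951 to 3331 in left legs (labelled tenotomy) and from 2074 through 2731 to 3122 in right legs (labelled control). The left leg was higher in 6 of 7 mice, by 0.22 (SE 0.08, adjusted p 0.0319). At day 14 Sod1 signals were 2790, 2924, 2998, 3064 and 3153 in left legs, against 2443, 2536, 2550, 2631 and 2703 in right legs. The legs did not overlap, yet the difference of 0.21 had an adjusted p of 0.108. The 4 other probe sets of Sod1 did not all share its sign. In tenotomy mice they ran from -0.25 to 0.62 at day 2, with 3 of 4 of the same sign as the tested one, and from -0.17 to 0.50 at day 7, with 2 of 4. At day 14 all 4 were below 0, from -0.40 to -0.03, against 0.21 for the tested one. The 1 of these that was called in tenotomy mice gave -0.25 (SE 0.10, adjusted p 0.0411) at day 2, -0.17 at day 7 and -0.03 at day 14. In casting it was 0.40 (SE 0.07, adjusted p 6.71e-06) at day 2 and 0.45 at day 7. Of the 4 others, 2, 3 and 1 had the sign of the tested probe set at days 2, 7 and 14 of casting. At day 14 these 4 ran from -0.10 to 0.43, against -0.05 for the tested one. The day 7 calls of the tested probe set were also lost under a mean of all probe sets, with adjusted p of 0.222 in casting and 0.439 in tenotomy mice, and in 6 of 15 and 6 of 14 fits that left out 1 array.

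**Figure D2:**
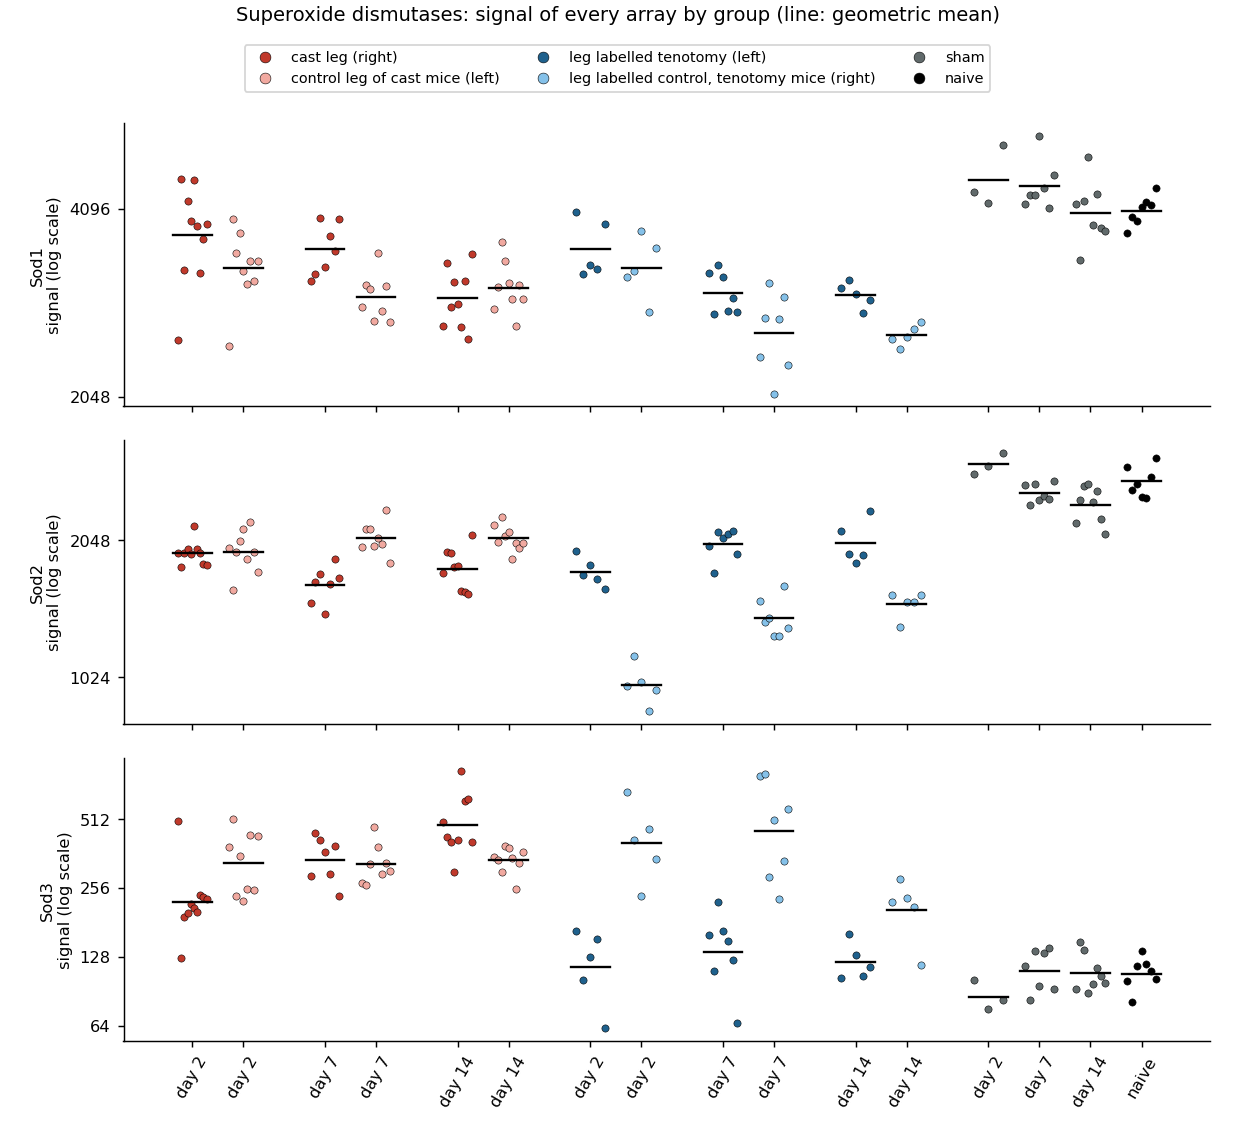
Signal of every array (points, log axis) for Sod1, Sod2 and Sod3 in the 16 groups, with the geometric mean of each group as a line. Right legs of tenotomy mice, labelled control, hold the lowest Sod2 signals at day 2, from 863.4 to 1140, and Sod3 is higher in most arrays of both legs of casting mice than in sham and naive arrays.

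Of the enzymes that remove hydrogen peroxide, Gpx3 rose in cast legs at each day. At day 2 its signals ran from 1827 through a median of 2462 to 2922 in cast legs and from 1186 through 1696 to 2607 in control legs. Cast legs were higher in 9 of 9 mice, by 0.44 (SE 0.15, adjusted p 0.0184), though the ranges overlapped, and the call was lost without control leg replicate 7 (0.37) or replicate 8 (0.39). At day 7 they ran from 1802 through 2271 to 3630 in cast legs and from 1162 through 1450 to 2318 in control legs. The cast leg was higher in 7 of 7 mice, by 0.74 (SE 0.17, adjusted p 0.000821). At day 14 they ran from 1597 through 2405 to 4392 in cast legs and from 1359 through 1700 to 2584 in control legs. All 9 of 9 mice had the higher signal in the cast leg, with a difference of 0.44 (SE 0.15, adjusted p 0.0384), and that call was lost in 10 of 18 fits that left out 1 array. With no block for the mouse its adjusted p was 0.0631. Gpx3 has 1 probe set on the array, so no second measurement was at hand.

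In tenotomy mice Gpx3 was called at day 7 only, of the 3 days, and with the sign opposite to casting as the sample labels give the legs. With right set against left in both models the sign was the same at day 7, and the difference between the models was 0.38 (adjusted p 0.293). Its signals there ran from 885.6 through 1269 to 1949 in left legs (labelled tenotomy) and from 2195 through 2854 to 4211 in right legs (labelled control). All left legs were below all right legs, and the difference was -1.12 (SE 0.17, adjusted p 4.11e-08). At day 2 the difference was 0.06 (SE 0.20, adjusted p 0.863), with signals of 1394, 1681, 1816, 1994 and 2436 in left legs against 1531, 1684, 1710, 1888 and 2029 in right legs. At day 14 it was -0.22 (SE 0.20, adjusted p 0.492), with 1208, 1477, 1774, 1908 and 2223 in left legs against 1230, 1503, 1942, 2249 and 3595 in right legs. The legs overlapped on both of these days.

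Gpx1 was lower in left legs of tenotomy mice on each day, in every mouse with both legs. At day 2 its signals were 970.1, 985.1, 1003, 1010 and 1181 in left legs (labelled tenotomy), against 1559, 1806, 1845, 1900 and 1943 in right legs (labelled control). The legs stood well apart, by -0.81 (SE 0.10, adjusted p 8.55e-11). At day 7 they ran from 867.3 through 952.5 to 1137 in left legs and from 1191 through 1396 to 1684 in right legs. That difference was -0.58 (SE 0.09, adjusted p 3.35e-08), with no overlap. At day 14 the signals were 845.1, 860.4, 870.7, 898.2 and 936.4 in left legs, against 1052, 1133, 1155, 1233 and 1248 in right legs, a difference of -0.40 (SE 0.10, adjusted p 0.00202). In casting the differences were 0.11, 0.23 and 0.16 at the 3 days, with adjusted p of 0.322, 0.068 and 0.154, and means between 1059 and 1110 in cast legs against means between 940.3 and 1013 in control legs.

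Cat fell in cast legs at day 14 and was lower in left legs of tenotomy mice at day 2. At day 14 of casting its signals ran from 305.2 through 400.5 to 650.9 in cast legs and from 506.6 through 622.4 to 694.8 in control legs. The ranges overlapped through a few cast legs, and the cast leg was lower in 8 of 9 mice, by a difference of -0.54 (SE 0.13, adjusted p 0.00216). At day 7 the cast leg was lower in 7 of 7 mice, but the difference of -0.27 had an adjusted p of 0.304. At day 2 of tenotomy, signals were 353.1, 376.1, 377.3, 454.8 and 522 in left legs (labelled tenotomy), against 595.5, 770.5, 801.2, 821.6 and 947.4 in right legs (labelled control). The legs did not overlap, and the difference was -0.91 (SE 0.18, adjusted p 9.5e-06). At days 7 and 14 it was -0.20 and 0.11, with adjusted p of 0.324 and 0.739. The second probe set of Cat gave -0.39 (adjusted p 0.00962) at day 14 of casting and -0.88 (adjusted p 3.52e-07) at day 2 of tenotomy.

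**Figure D3:**
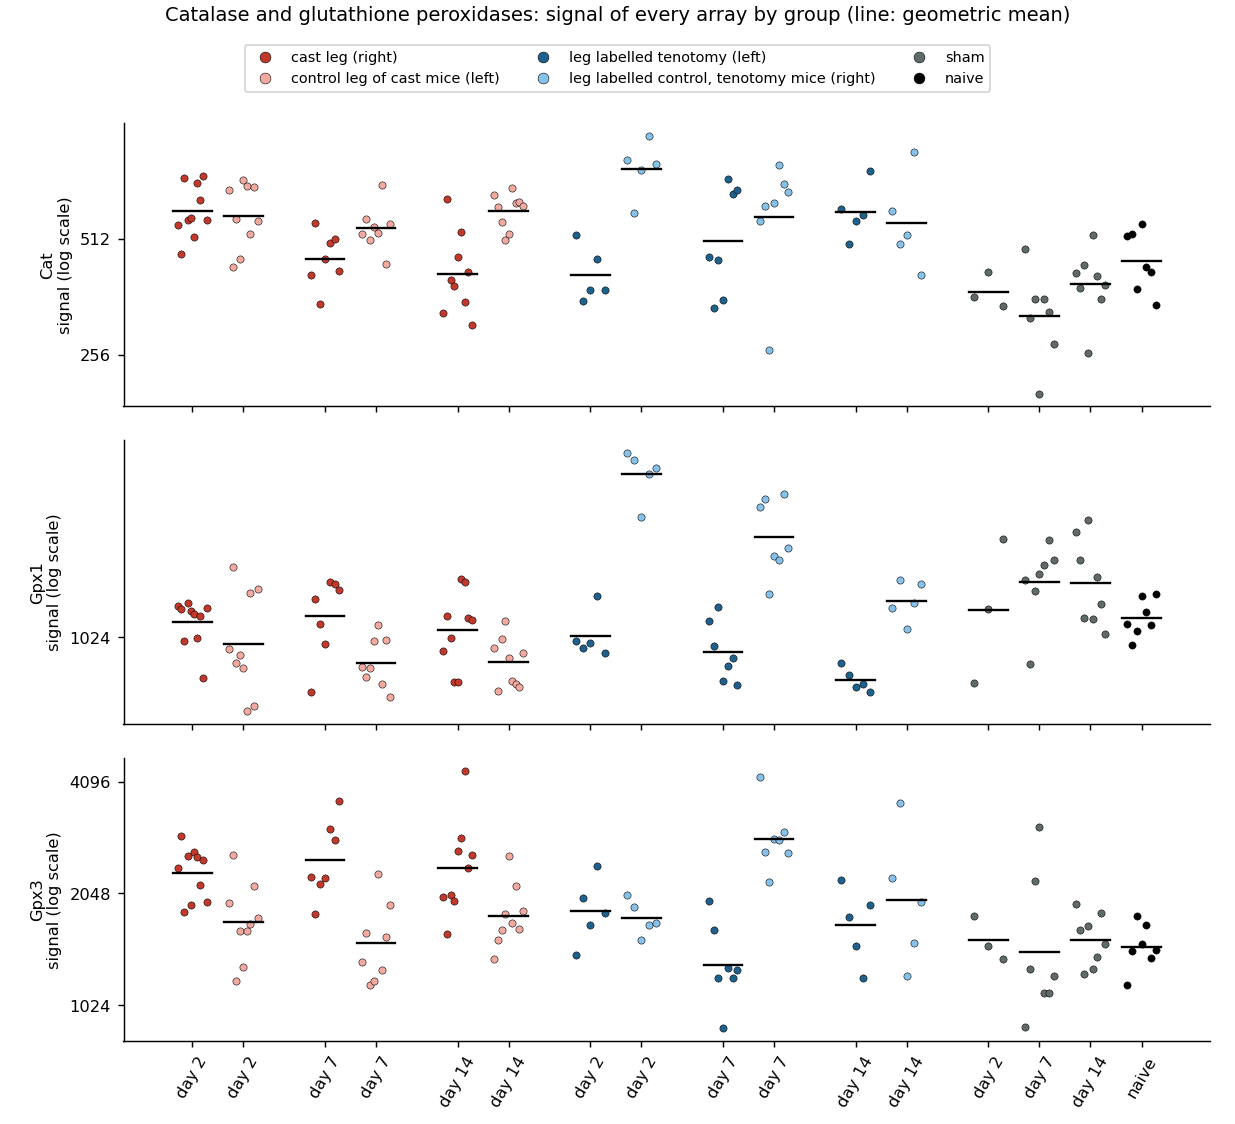
Signal of every array (points, log axis) for Cat, Gpx1 and Gpx3 in the 16 groups, with the geometric mean of each group as a line. Gpx1 is highest in right legs of tenotomy mice (labelled control) at day 2, where all 5 arrays lie between 1559 and 1943, and Gpx3 is above the control leg in cast legs at each day by its mean.

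Txnrd1 was called in 1 of the 6 leg differences. At day 2 of tenotomy its signals were 600.9, 676.9, 680.5, 731.2 and 766.6 in left legs (labelled tenotomy), against 707.3, 826.2, 952.2, 987.4 and 1049 in right legs (labelled control). The left leg was lower in 5 of 5 mice, by -0.38 (SE 0.12, adjusted p 0.0101), and 1 right leg lay among the left legs. At days 7 and 14 the differences were 0.23 and 0.21, with adjusted p of 0.0783 and 0.233. In casting they were -0.20, -0.22 and 0.02 at the 3 days, and none was called. Its 2 other probe sets had the same sign as the tested one at day 2 in both models, and neither was called there.

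Hmox1, the inducible haem oxygenase, showed the largest difference of any enzyme measured here. In tenotomy mice at day 2 its signals were 18.08, 20.77, 39.41, 39.47 and 51.17 in left legs (labelled tenotomy), against 149.8, 168.7, 178.2, 544.2 and 571.4 in right legs (labelled control). Every right leg was above every left leg, and 3 right legs lay between 149.8 and 178.2 while the other 2 were at 544.2 and 571.4. The difference was -2.94 (SE 0.40, adjusted p 1.03e-09), a 7.69-fold lower level in left legs on the scale with the added constant. At day 7 signals ran from 9.357 through 26.52 to 39.61 in left legs and from 32.71 through 65.68 to 99.71 in right legs. The ranges overlapped slightly, with lower left legs in 5 of 7 mice and a difference of -1.14 (SE 0.34, adjusted p 0.00479). At day 14 they were 7.034, 20.82, 26.94, 29.62 and 31.44 in left legs, against 34.28, 39.7, 44.45, 46.74 and 61.25 in right legs. The legs did not overlap at day 14, but the difference of -0.96 (SE 0.40) had an adjusted p of 0.0769.

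In casting mice Hmox1 scattered widely. At day 2 it ran from 27.06 through a median of 44.67 to 59.83 in cast legs and from 23.59 through 40.67 to 594.4 in control legs. A single control leg gave the signal of 594.4, more than any other array in the series, and the difference of -0.46 (SE 0.29) had an adjusted p of 0.29. At day 7 the difference was 0.18 (SE 0.33, adjusted p 0.851). At day 14 signals ran from 33.35 through 62.58 to 154.2 in cast legs and from 19.93 through 37.18 to 49.19 in control legs. Cast legs were higher in 8 of 9 mice, by 0.84 (SE 0.30, adjusted p 0.0477). The call was lost in 12 of 18 fits that left out 1 array, and in 6 of 11 other settings, the mouse as a fixed block among them (adjusted p 0.0583).

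Nqo1 rose in cast legs at day 2, where signals ran from 126.6 through 150.3 to 181.6 in cast legs and from 81.91 through 107.7 to 115.9 in control legs. No cast leg was as low as any control leg, and the cast leg was higher in 9 of 9 mice. The difference was 0.59 (SE 0.09, adjusted p 1.02e-07). It was 0.13 at day 7 and 0.10 at day 14, with adjusted p of 0.56 and 0.525, and the change of the leg difference from day 2 to day 14 was -0.48 (SE 0.13, adjusted p 0.00496). In tenotomy mice at day 2 Nqo1 signals were 109.1, 118.4, 127.9, 128.9 and 149.2 in left legs (labelled tenotomy), against 137.2, 151.3, 173.3, 183.1 and 188.8 in right legs (labelled control). The left leg at 149.2 lay within the range of the right legs. The difference was -0.38 (SE 0.12, adjusted p 0.00885), and under quantile normalization it was -0.27 with an adjusted p of 0.102. At days 7 and 14 it was 0.10 and 0.30, with adjusted p of 0.52 and 0.0668.

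**Figure D4:**
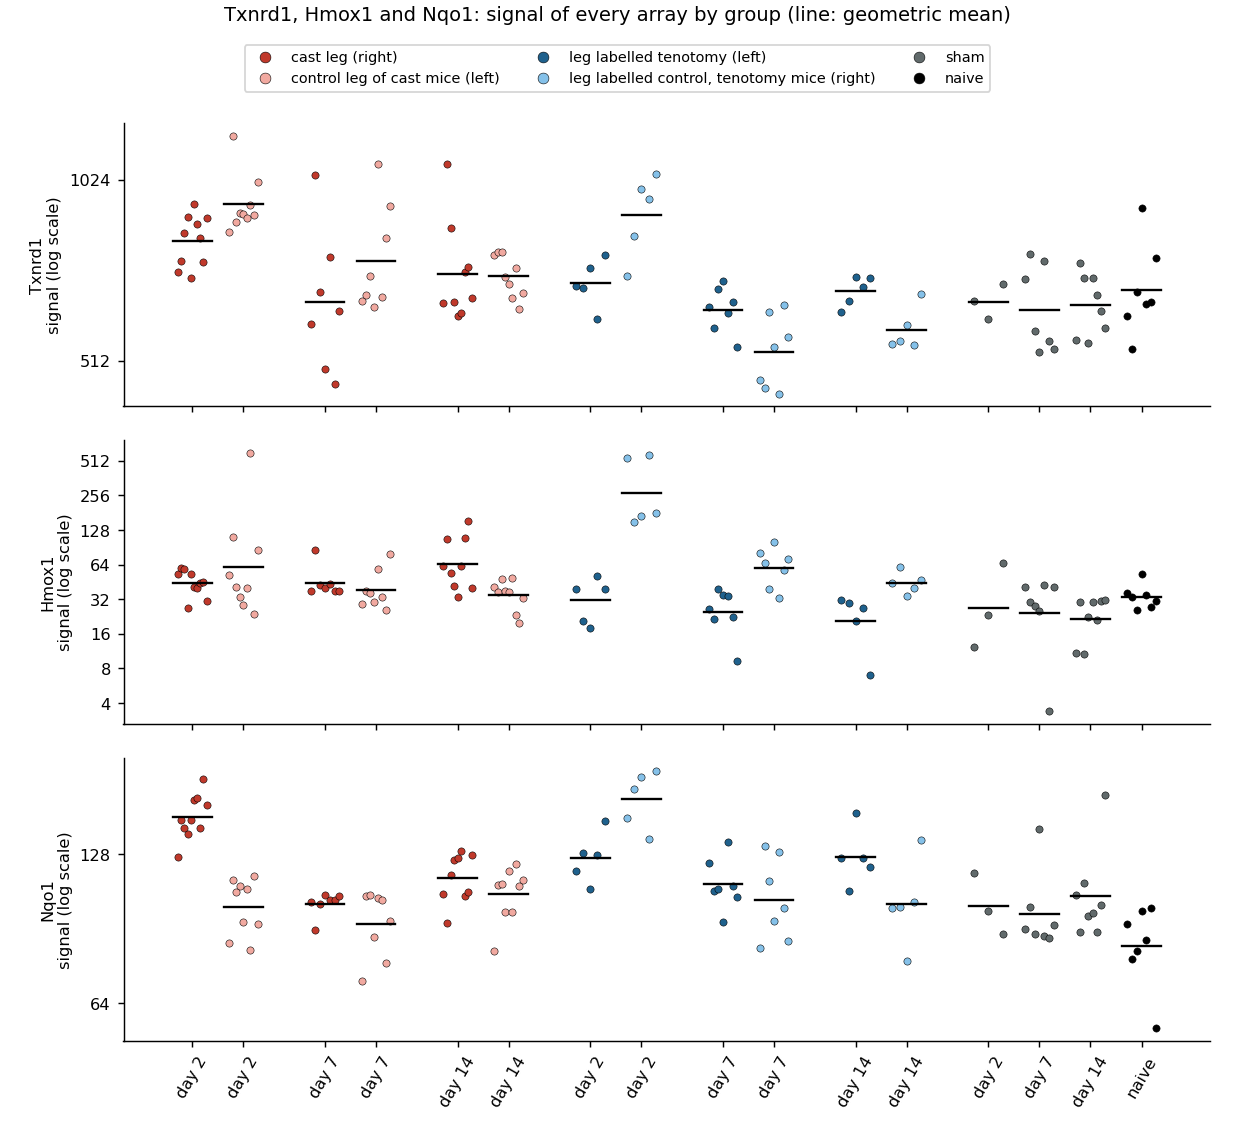
Signal of every array (points, log axis) for Txnrd1, Hmox1 and Nqo1 in the 16 groups, with the geometric mean of each group as a line. All 5 right legs of tenotomy mice (labelled control) at day 2 have Hmox1 signals of 149.8 or more, and the lowest Nqo1 signal of a cast leg at day 2, 126.6, is above the highest of a control leg, 115.9.

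The 2 models were set against each other through the difference of their leg differences, tenotomy minus casting, each read as its labels give it. Of 9 enzymes, 6 were called at day 2, when 34.9% of all genes were, 6 at day 7 against 29.5%, and 6 at day 14 against 28.7%. Sod2, Sod3, Gpx1 and Hmox1 were called at each day. Sod2 was positive, at 0.83, 0.88 and 0.67, and Sod3 negative, at -1.21, -1.80 and -1.25. Gpx1 was also negative, at -0.92, -0.81 and -0.56, as was Hmox1, at -2.49, -1.32 and -1.79. Gpx3 stood out at day 7, at -1.865 (SE 0.24, adjusted p 2.92e-10), the day on which its leg difference was 0.74 in casting and -1.12 in tenotomy mice. Nqo1 differed at day 2, at -0.97 (SE 0.15, adjusted p 1.08e-07). Some of these calls rested on single arrays: Hmox1 at day 7 was lost without cast leg replicate 1 (-1.17) or left leg replicate 6 (-1.13), and Cat at day 14 without replicate 5 of the left (0.55) or of the right legs (0.53). Gpx3 at day 14, at -0.66, was lost in 9 of 28 fits that left out 1 array. If right is instead set against left in both models, as the design text reads, 9 of 27 enzyme and day combinations are called in place of 18. Sod3 is then 2.33, 1.66 and 0.23 and Hmox1 3.40, 0.97 and 0.12 at the 3 days.

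Leg differences also changed between day 2 and day 14 within a model. In casting 5 of 9 enzymes were called, against 14.3% of all genes, and in tenotomy 6 of 9, against 8.15%. Sod3, whose leg difference was lower at day 2, changed by 1.07 in casting and by 1.03 in tenotomy (adjusted p 0.00139 and 0.0464). Hmox1 changed by 1.29 and 1.99 (adjusted p 0.0235 and 0.0151), and the value for casting fell to 0.90 and was not called without the control leg at 594.4 (adjusted p 0.101). Cat changed by -0.58 in casting and 1.02 in tenotomy, and Nqo1 by -0.48 and 0.69, each called. Leaving out the 3 arrays whose low signals were raised ended the Cat call in casting (-0.52, adjusted p 0.0573), and the Hmox1 call in tenotomy was lost without right leg replicate 3 (1.74) or 5 (1.73) of day 2. Sod2 changed by -0.21 and -0.37, and the first of these, at an adjusted p of 0.0495, was lost in 24 of 37 fits that left out 1 array. The value of Sod3 in tenotomy was lost in 13 of 20 such fits. That of Hmox1 in casting was also lost without cast leg replicate 9 of day 14 (1.14), and that of Txnrd1 in tenotomy without right leg replicate 1 of day 2 (0.54). Txnrd1 was called in tenotomy alone, at 0.59 (adjusted p 0.0203), and whether that differs from the 0.22 of casting was not tested. Under a mean of probe sets this Txnrd1 call was also lost (adjusted p 0.16).

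Against sham, the right legs of tenotomy mice (labelled control) differed in 8 of 9 enzymes at day 2, 7 at day 7 and 4 at day 14, while 35.0%, 41.2% and 35.9% of all genes were called. Hmox1 averaged 322.5 ± 215.3 in these right legs (n = 5) and 33.91 ± 28.52 in sham at day 2 (n = 3), with a difference of 3.12 (SE 0.49, adjusted p 7.81e-08). The sham signals of 12.19, 23.32 and 66.21 were all below the lowest right leg, at 149.8. Sod3 was 75.72, 82.55 and 100.9 in sham at day 2, below all right legs, by 2.18 (SE 0.29, adjusted p 1.11e-09). Sod2 was 2865, 2980 and 3179 in sham, above all right legs, by -1.61 (SE 0.09, adjusted p 8.65e-29), and it was also lower in right legs than in sham at day 7 (-0.91) and day 14 (-0.72). Sod1 was lower too, at -0.47, -0.78 and -0.65, and Cat higher, at 1.06, 0.85 and 0.52. Gpx1, Nqo1 and Txnrd1 were higher at day 2, at 0.68, 0.70 and 0.48, and of these Gpx1 alone was called at day 7, at 0.23, when Gpx3 was also higher, at 1.01. The Gpx1 call at day 7 was lost in 5 of 14 fits that left out 1 array, and the Cat call at day 14 without right leg replicate 2 (0.36). Under a mean of probe sets the calls of Sod1 at day 7 (-0.08, adjusted p 0.563) and Cat at day 14 (0.27, adjusted p 0.136) were lost. That of Txnrd1 at day 2 was lost there too (adjusted p 0.0739), and that of Sod1 at day 2 under quantile normalization (adjusted p 0.409). All 10 skeletal muscle markers were called lower in right legs than in sham at days 2 and 7, and 15 of 15 macrophage markers higher.

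The left legs (labelled tenotomy) lay nearer to sham. At day 2, 2 enzymes were called, with 4 at day 7 and 4 at day 14, against 9.99%, 19.1% and 20.7% of all genes. Sod2 was lower at each day, at -0.78, -0.37 and -0.28, and so was Sod1, at -0.36, -0.57 and -0.44, although its day 2 call was lost in 5 of 8 fits that left out 1 array. Cat was higher at days 7 and 14, at 0.64 and 0.62, and Gpx1 lower, at -0.35 and -0.49. Hmox1 was not called, at 0.18, -0.05 and -0.05, nor was Sod3, at 0.41, 0.26 and 0.16. Against sham, 8 of 10 skeletal muscle markers were called lower in left legs at day 7 and 0 on the other days. Of 15 macrophage markers, 0, 1 and 7 were called lower at the 3 days, and of 9 fibroblast markers 4, 1 and 5, while 5 of 8 smooth muscle markers were called higher on each day. The part of these cells was not tested. Because sham mice were numbered in another style, read here as another cohort, cohort and surgery cannot be told apart in these values. Under a mean of probe sets the Cat call at day 7 was lost in left legs (0.30, adjusted p 0.124). The left leg calls of Sod2 at day 7 (-0.04, adjusted p 0.693) and Sod1 at day 14 (-0.09, adjusted p 0.632) were lost as well. With that mean Sod2 turned to 0.04 at day 14 in left legs. Sod1 turned to 0.27 and 0.02 at days 2 and 7 in left legs and to 0.15 and 0.03 at days 2 and 14 in right legs.

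Sham surgery left none of the 9 enzymes called against naive on any day, while 0.0%, 0.63% and 2.26% of all genes were called at days 2, 7 and 14. By limma, 0, 1 and 3 of the 9 had an unadjusted p under 0.05 at these days. The share of all genes at that looser threshold was not counted. The control legs of casting mice, by contrast, differed from naive muscle in 5, 3 and 6 enzymes, while 27.9%, 23.1% and 27.5% of all genes were called. Sod3 averaged 343.3 ± 105.8, 330.1 ± 70.23 and 340.1 ± 43.28 in these control legs at days 2, 7 and 14 (n = 9, 8 and 9), against 109.3 ± 17.15 in naive muscle (SD, n = 7). No control leg overlapped the naive arrays, and the differences were 1.57, 1.55 and 1.61 (adjusted p at most 5.96e-09). Sod2 was lower in control legs at each day, at -0.51, -0.41 and -0.41, without overlap, and Sod1 also, at -0.31, -0.46 and -0.41. Under quantile normalization the Sod1 value at day 2 was 0.03. The Sod1 call was lost on each of the 3 days both under quantile normalization and under a mean of probe sets, with adjusted p of 0.141 or more. All 10 skeletal muscle markers were called lower, and 13, 10 and 8 of 15 macrophage markers higher, in control legs of casting mice than in naive muscle, and their part in these values was not tested.

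Across the 16 groups, the order of the group means was mostly not resolved between neighbours. Of 15 steps from one group to the next, the gap exceeded the larger SD of the 2 groups in 4 steps for Sod2, 3 for Sod3, 2 for Gpx1, 1 each for Sod1, Cat, Hmox1 and Nqo1, and 0 for Gpx3 and Txnrd1. Sod2 had its highest mean in sham at day 2, 3008, and its lowest in right legs of tenotomy mice (labelled control) at day 2, 988.9. Those right legs at day 2 were also the highest for Hmox1, at 322.5, for Gpx1, at 1811, for Cat, at 787.2, and for Nqo1, at 166.7. Sod3 was highest in cast legs at day 14 and right legs of tenotomy mice at day 7, at 502.9 and 502.6, and lowest in sham at day 2, at 86.39. Sod1 was highest in sham at day 2, at 4574, and lowest in right legs of tenotomy mice at day 14, at 2573. Gpx3 was highest in right legs of tenotomy mice at day 7, at 2918, and Txnrd1 in control legs of casting mice at day 2, at 938.8.

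The genes most like each enzyme over these 16 group means were listed as a description, since the groups share cohorts and days. For Hmox1 they were the macrophage marker Cd68 (Pearson's r 0.98), Ms4a6d (0.97) and Slfn2 (0.96). For Sod2 they were Ndufa9 (0.99), a subunit of respiratory complex I, the mitochondrial carrier Slc25a11 (0.98) and Ndufab1 (0.98). For Sod1 they were the proteasome subunits Psmb6 (0.96) and Psmd6 (0.95) and Cops2 (0.95). Sod3 was most like 2310022B05Rik (0.97), Actn4 (0.97) and Arhgap1 (0.96), Gpx1 most like Mt3, Ap2s1 and Snrpg (0.91 to 0.92), and Nqo1 most like Sqstm1 (0.92), Tmem189 and Nmt1. For Cat the nearest gene was Actl6a (0.87), for Gpx3 Mylip (0.83) and for Txnrd1 Otulin (0.87). Set against the mean of the macrophage list, Hmox1 had an r of 0.95 over the 16 group means and 0.515 over arrays within groups, Sod3 0.78 and 0.63, and Gpx1 0.72 and 0.57. Sod2 had -0.80 over group means but -0.09 within groups.

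**Figure D5:**
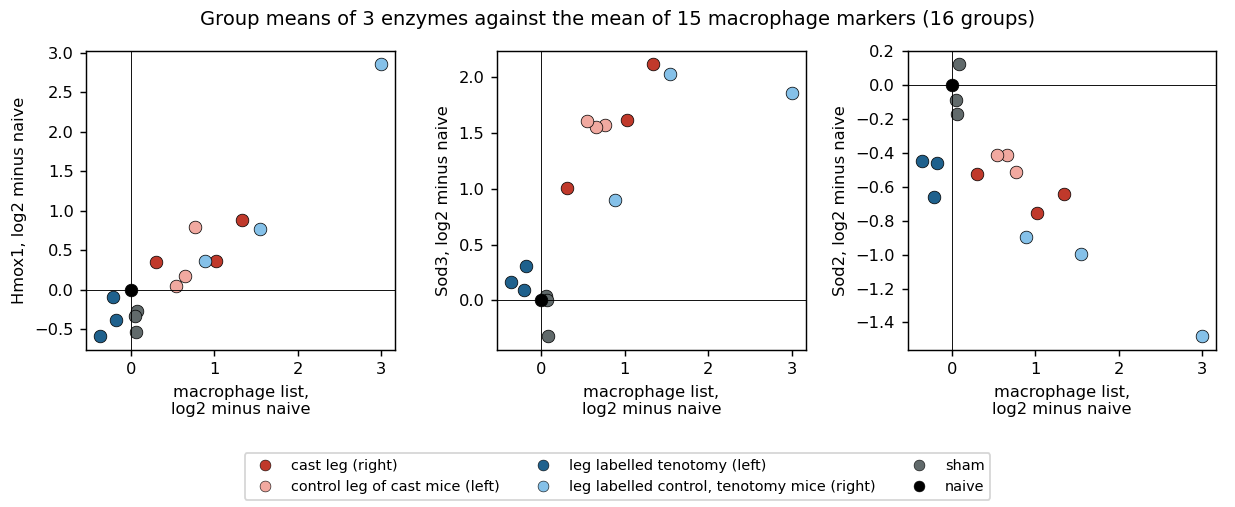
Group means of Hmox1, Sod3 and Sod2 (vertical axes) against the mean of 15 macrophage markers (horizontal axis), all as log2 differences from the naive group, with 1 point for each of the 16 groups. The right legs of tenotomy mice (labelled control) at day 2 lie at 3.00 on the horizontal axis, apart from the other groups, and hold the highest Hmox1 and the lowest Sod2.

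The enzymes were read beside 6 lists of related genes, with 107 of 116 genes tested. The lists cover glutathione, thioredoxin and peroxiredoxin, other NRF2-related genes, regulators, sources of oxidants and selenoproteins. In cast legs 21, 4 and 7 of the 107 were called higher over the 3 days, beside 11.0%, 4.22% and 7.17% of all genes, and 11, 7 and 11 were called lower, beside 13.3%, 4.55% and 6.04%. In left legs of tenotomy mice (labelled tenotomy), the counts higher than in right legs were 22, 26 and 21 over the 3 days, beside 15.9%, 14.6% and 9.71% of all genes. The counts lower were 45, 29 and 14, beside 20.8%, 18.3% and 13.5%. The median over the 107 was -0.15 at day 2 of tenotomy, beside -0.02 for all genes.

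At day 2 of casting, 7 of 28 tested genes of glutathione metabolism rose and 2 fell, while 11.0% of all genes rose and 13.3% fell. Chac1, which degrades glutathione, averaged 1270 in cast legs against 531.4 in control legs, a difference of 1.47 (SE 0.32, adjusted p 0.000124). The glutathione transferases Gstt2 and Gsta3 rose by 0.90 and 0.83. Gclm, the modifier subunit of the enzyme that starts glutathione synthesis, rose by 0.52 (adjusted p 2.2e-05), and Gsr, which regenerates reduced glutathione, by 0.38. Gclc, the catalytic subunit, was at 0.02 and not called. Of the regulators, Bach1, a repressor of NRF2 target genes, rose by 0.78 (adjusted p 1.03e-12) and Keap1, which holds NRF2 in check, by 0.26, whereas Nfe2l2 itself, at 0.16, and Srxn1, which repairs peroxiredoxins, at 0.35, were not called. P4ha1, Nqo2, Ugdh and Gpx8 fell by 0.96, 0.79, 0.63 and 0.57 on the log2 scale.

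Later in casting fewer of the 107 genes were called than at day 2, as was also so for all genes. At day 7, 4 were higher and 7 lower, beside 4.22% and 4.55% of all genes. At day 14, 7 were higher and 11 lower, beside 7.17% and 6.04%. At day 7 Ncf4, a subunit of the phagocyte NADPH oxidase, rose by 0.71, Gstm2 by 0.50, the transporter Abcc1 by 0.42 and thioredoxin (Txn1) by 0.22. P4ha1, Gsto1, the mitochondrial deacetylase Sirt3 and Msrb2 fell by 0.57, 0.45, 0.40 and 0.40. At day 14 the rises were led by Ncf4, Rac2 and Ncf1 of the phagocyte oxidase, at 0.65, 0.62 and 0.60, and by Akr1b8 at 0.57. Msrb2, Gsto1, P4ha1 and Gstk1 fell by 0.46, 0.44, 0.38 and 0.37. Nfe2l2 rose by 0.21 (adjusted p 0.0407), while Gclc, Gclm, Gsr, Srxn1, Keap1 and Txn1 were not called at day 14, at values between -0.05 and 0.13.

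After 2 days of tenotomy, genes of the phagocyte NADPH oxidase had the largest differences of the 6 lists. Cybb averaged 29.76 in left legs (labelled tenotomy) against 229.5 in right legs (labelled control), a difference of -2.81 (SE 0.21, adjusted p 2.84e-21). Ncf1, Cyba and Rac2 followed, at -2.66, -2.59 and -2.26. Srxn1 was at -1.73 (adjusted p 2.19e-12), Txn1 at -0.77, Nfe2l2 at -0.64, Gclm at -0.44 and Gsr at -0.41, all called, whereas Keap1 was called higher, at 0.31. The genes most above the right legs were Msrb3 at 1.19, Nos1, the neuronal nitric oxide synthase of muscle, at 0.98, Gstk1 at 0.83 and Pstk at 0.78. Of the 19 tested genes on the list of other NRF2-related genes, 1 was called higher and 11 lower, beside 15.9% and 20.8% of all genes. Srxn1, Txn1, Gclm and Gsr stand in other lists and are not in this count.

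At days 7 and 14 of tenotomy the split was more even. At day 7 Ppargc1a, a regulator of mitochondrial genes, was higher in left legs by 0.87, Mgst3 by 0.76, Nos1 by 0.75 and Sirt3 by 0.73, and Nox4, Gpx8, Akr1b8 and Cybb were lower, at -1.85, -1.43, -1.36 and -1.35. Nfe2l2 was at -0.49 and Txn1 at -0.27, while Keap1 and Gclm were higher, at 0.27 and 0.40, all called. Gclc, Gsr and Srxn1 were not called at day 7, at 0.14, 0.06 and -0.15. At day 14 Nos1, Mgst3, Glrx and Sirt3 were higher by 0.89, 0.78, 0.69 and 0.67, and Ncf4, Blvrb, Cyba and Nox4 lower, at -1.38, -1.17, -1.14 and -0.99. Gclm and Keap1 were again higher, at 0.41 and 0.26, and Nfe2l2 at -0.19, Srxn1 at -0.40, Txn1 at 0.10, Gsr at 0.13 and Gclc at -0.06 were not called. Prdx6 is not analysed here.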

How the data were processed

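Gastrocnemius RNA (6 ug) of 111 muscles was hybridised to 1-colour Affymetrix arrays of 45101 probe sets. The deposited values are linear intensities, made with GCOS and MAS5 per the submitters' processing notes, with a trimmed mean near 100 in each array, and their versions are not given in the sources used here. Values were not renormalized: log2 of the deposited intensity plus 3.982, the 20th percentile of all signals, was used, so a fold understates changes of dim genes. Probe sets above the array's 40th percentile in at least 5 arrays were kept, and the one with the highest mean stood for its gene, leaving 16029 genes. Probe sets of several genes were left out. limma 3.58.1 in R 4.3.3 fitted 16 group means with the mouse as a random block (correlation 0.0964) and 23 contrasts, with Benjamini-Hochberg adjustment over all genes within each contrast and a threshold of 0.05. Figures used matplotlib 3.10.9 in Python 3.11.15.

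Animal numbers in the labels, not replicate numbers, pair the legs: 41 mice gave both legs, and deviations from group means correlated by 0.0634 on average within a mouse, against -0.0085 between mice. Replicate numbers were shared by legs of the same mouse in 3 cases only. The named pathway genes were the 4 largest called changes in each direction, plus 8 fixed core genes, of which Prdx6 is not analysed here. Other offsets, filters, normalizations, probe set summaries, blocks and array weights, and fits without each array, were tried. Fits without an array of a group of over 5 were added after the data were seen. The test was checked on simulated data. The members and all gene lists were chosen with earlier results of these data known.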

Additional observations from a re-analysis of the deposited data

Results flagged for a closer look

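Of 135 sets of arrays (1 enzyme in 1 group of 4 to 10 arrays), 14 held an array set far from the others by Dixon's criterion, which chance alone reaches in about 1 of 20 sets. For Hmox1 these were control leg replicate 4 of casting at day 2, at 594.4 with the others between 23.59 and 112.1, cast leg replicate 1 at day 7, at 86.56 with the others between 37.46 and 43.57, and sham replicate 2 at day 7, at 3.419 with the others between 25.36 and 42.96. For Nqo1 they were cast leg replicate 1 at day 7 (90.14, others 101.6 to 105.9), sham replicate 7 at day 7 (144.2, others 86.85 to 100.4), sham replicate 8 at day 14 (168.7, others 89.02 to 112) and naive replicate 1 (57.01, others 78.81 to 99.67). For Gpx1 they were cast leg replicate 7 at day 2 (888, others 1012 to 1153), left leg replicate 1 of tenotomy mice at day 2 (1181, others 970.1 to 1010) and sham replicate 1 at day 7 (933.6, others 1204 to 1435). For Sod2 they were cast leg replicate 1 at day 2 (2206, others 1786 to 1961) and right leg replicate 3 of tenotomy mice at day 14 (1321, others 1496 to 1554). Sod3 had cast leg replicate 10 at day 2, at 502.7 with the others between 127 and 239. Cat had right leg replicate 2 of tenotomy mice at day 7, at 263.3 with the others between 568.1 and 794.7. Cast leg replicate 1 at day 7 is far from its group for both Hmox1 and Nqo1. No cause was tested.

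The leg difference of tenotomy mice, left labelled tenotomy minus right labelled control, differed from that of casting mice, by limma's test of the difference itself, in 18 of 27 cases. Of all genes, 34.9%, 29.5% and 28.7% were called at days 2, 7 and 14. At day 2 the differences were 0.83 for Sod2 (adjusted p 1.07e-12), -1.21 for Sod3 (0.000614), -0.95 for Cat (0.000214), -0.92 for Gpx1 (2.15e-09), -2.49 for Hmox1 (1.98e-05) and -0.97 for Nqo1 (1.08e-07). At day 7 they were 0.88 for Sod2, -1.80 for Sod3, -0.81 for Gpx1, -1.865 for Gpx3, 0.46 for Txnrd1 and -1.32 for Hmox1, with adjusted p between 3.76e-14 and 0.0243. At day 14 they were 0.67 for Sod2, -1.25 for Sod3, 0.65 for Cat, -0.56 for Gpx1, -0.66 for Gpx3 and -1.79 for Hmox1, with adjusted p between 8.65e-09 and 0.0398. These values hold for the labels as given. With right set against left in both models, 9 of the 27 were called, and Sod2, Sod3, Gpx1 and Hmox1 had the opposite sign on each day. For the labels as given, the Txnrd1 call at day 7 was lost in 2 of 11 other settings. A mean of probe sets was among them, and the adjusted p was at most 0.128.

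Between day 14 and day 2, the leg difference of casting mice changed by -0.21 for Sod2, 1.07 for Sod3, -0.58 for Cat, 1.29 for Hmox1 and -0.48 for Nqo1, with adjusted p between 0.00139 and 0.0495. That of tenotomy mice changed by -0.37 for Sod2, 1.03 for Sod3, 1.02 for Cat, 0.59 for Txnrd1, 1.99 for Hmox1 and 0.69 for Nqo1, with adjusted p between 0.00341 and 0.0464.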

How the results depend on the processing

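Of 99 calls of an enzyme in a comparison, 57 held in every alternative run, 39 were lost in at least 1 and 6 reversed in at least 1 (the reading of leg side not counted); of the 27 calls in leg differences, 18 held in all. The number of enzymes called in cast against control legs was 5 under quantile normalization at day 2 (3 in the reported fit), and at day 14 it was 3 with no filter, 3 with a mean of probe sets, 2 with no replicate block and 3 with the mouse as a fixed replicate block (5 reported). With the fixed block Sod1 at day 2 of casting was called (0.19, adjusted p 0.0334). At day 14 of tenotomy 6 were called when the groups compared were fitted alone (3 reported). Over 3 days, left legs against sham gave 5 with a mean of probe sets (10 reported), and control legs of casting against naive 9 under quantile normalization (14 reported). Leaving out 1 array at a time gave 2 to 4, 2 to 4 and 2 to 5 at the 3 days of casting, 7 to 7, 5 to 8 and 2 to 4 at those of tenotomy, 17 to 18 for tenotomy minus casting, 8 to 12 for day 14 minus day 2, 18 to 21 for right legs and 9 to 11 for left legs against sham, 0 to 0 for sham and 10 to 15 for control legs of casting against naive. Setting right against left in both models gave 9 calls (18 reported) and turned the sign of Sod2 (-0.81, -0.20 and -0.22 at days 2, 7 and 14), Sod3 (2.33, 1.66, 0.23), Gpx1 (0.70, 0.34, 0.23), Hmox1 (3.40, 0.97, 0.12), Cat (0.87 at day 2), Gpx3 (0.38 at day 7) and Txnrd1 (0.58 and -0.0075 at days 2 and 7). A mean of probe sets turned Sod1 in right legs against sham (0.15 and 0.0277 at days 2 and 14) and in left legs (0.27 and 0.0238 at days 2 and 7), and Sod2 in left legs at day 14 (0.0384). Quantile normalization turned Sod1 in control legs of casting against naive at day 2 (0.0333). Of counts over all genes, cast against control legs at day 7 gave 2436 with array weights (1406 reported), tenotomy minus casting 3020 and 1305 at days 7 and 14 with right set against left (4725 and 4598 reported), left legs against sham at day 2 1053 with the groups compared fitted alone and 810 without sham replicate 2 (1602 reported), and sham against naive 211 at day 14 without sham replicate 3 (363 reported) and between 1 and 5 at day 2 in 9 settings (0 reported). Replicate numbers, unlike animal numbers, did not pair the legs. The causes were not tested.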
